A study of Mus musculus with 4 samples.

Results

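Pro-B and pre-B like cells were sought among single cells of mouse bone marrow sorted as Lin-Sca1+cKit+ (LSK), the gate that holds hematopoietic stem cells and multipotent progenitors. A cell was taken as pro-B or pre-B like when its Igll1, Vpreb1 and Vpreb3 counts summed to 5 or more unique molecular identifiers (UMIs), with at least 1 UMI of Cd79a and none of Ms4a1, the gene for CD20. The cells were thus chosen by the UMI counts of these 5 genes, whose levels are given as a description. Of these genes, 4 stayed in the later test between genotypes and all 5 in the interaction test, and nothing is read from their values there. Of 13892 kept cells in 4 libraries, 134 met the rule. They comprised 2 cells of control replicate 1, 3 of control replicate 2, 9 of Nup358 knockout replicate 1 and 120 of Nup358 knockout replicate 2. What is said of the cells as a class therefore rests mostly on 1 library.

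Control mice were Nup358 fl/fl (genotype wild-type in the labels) and knockout mice were Nup358 fl/fl R26-CreERT2, in which the tamoxifen-regulated Cre is carried by every tissue and not by blood cells alone. Both genotypes received tamoxifen, and each library pooled 3 mice aged 9 to 12 weeks. Nup358, encoded by Ranbp2, is a large protein on the cytoplasmic face of the nuclear pore. The libraries held 9250 and 6839 control barcodes and 4840 and 4313 knockout barcodes, with 60330267, 25111828, 35986936 and 54850344 UMIs. Ranbp2 was read at 127 and 101 UMIs per 1000000 UMIs of the same cells (CPM) in the other kept control cells and at 123 and 126 CPM in the other kept knockout cells. In the pro-B and pre-B like cells it had no UMI in either control library, where the summed counts were 10090 and 17219 UMIs, and stood at 129 and 113 CPM in the knockout libraries. A 3′ count does not read the deleted exon, so these values do not check the labels.

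The libraries shared barcodes. Of 14300 barcode sequences, 6680 were present in more than 1 library, and 10936 of the 25242 deposited barcodes were found in another library at 3 or more times the UMIs. These copies were left out. They made up 14.8% of control replicate 1, 81.8% of control replicate 2, 65.3% of knockout replicate 1 and 18.8% of knockout replicate 2. Among the 134 pro-B and pre-B like cells, 94 had a barcode sequence that another library also held, each time without a partner of 3 or more times its size.

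B cells form from lymphoid progenitors through pro-B and pre-B stages. The transcription factors Ebf1 and Pax5 set up the B-lineage program, the Rag enzymes rearrange the immunoglobulin heavy chain locus, and the new heavy chain is first tested as part of the pre-B cell receptor. In that receptor Igll1 (lambda 5) and Vpreb1 stand in for a light chain, and Cd79a and Cd79b carry the signal into the cell. Vpreb3 is a related protein that assists receptor assembly within the cell. The surrogate light chain is shut off as the cells mature, while Ms4a1 comes on later. Pro-B cells carry some Kit on their surface but lie mostly outside the Sca1-positive gate used here. Immunoglobulin constant genes were not among the 27998 genes of the count tables, so heavy or light chain expression was not analysed here.

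The promoters of Igll1, Vpreb1, Vpreb3 and Cd79a are shown because the counts of these genes chose the cells, together with that of Chchd10, which lies beside Vpreb3 on chromosome 10 and was among the genes highest in these cells. Each window runs from 250 bases before to 50 bases after the start of the gene (RefSeq, GRCm38.p6), is written 5′ to 3′ on the strand of the gene, and covers chr16:16863936-16864235 for Igll1 and chr16:16869206-16869505 for Vpreb1, both on the minus strand, and chr10:75948050-75948349 for Vpreb3, chr7:24897247-24897546 for Cd79a and chr10:75932880-75933179 for Chchd10, on the plus strand. The starts are those of RefSeq. The gene spans of GENCODE vM21 begin farther upstream for Vpreb1, Vpreb3 and Cd79a. Capitals mark 3 motifs searched on both strands, namely CCCNNGGG (the core of sites bound by Ebf1), CAGGTG (an E-box) and ATGCAAAT (the octamer).
Igll1: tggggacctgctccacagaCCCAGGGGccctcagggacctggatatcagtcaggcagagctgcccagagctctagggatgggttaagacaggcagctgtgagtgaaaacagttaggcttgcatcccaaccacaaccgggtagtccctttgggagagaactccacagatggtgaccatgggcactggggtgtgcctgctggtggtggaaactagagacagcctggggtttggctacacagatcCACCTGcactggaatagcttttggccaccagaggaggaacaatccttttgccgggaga
Vpreb1: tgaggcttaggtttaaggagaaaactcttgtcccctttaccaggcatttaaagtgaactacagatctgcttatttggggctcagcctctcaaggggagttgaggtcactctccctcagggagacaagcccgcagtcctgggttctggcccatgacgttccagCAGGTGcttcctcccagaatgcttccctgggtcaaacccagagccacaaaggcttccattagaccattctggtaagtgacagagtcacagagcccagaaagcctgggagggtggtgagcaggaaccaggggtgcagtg
Vpreb3: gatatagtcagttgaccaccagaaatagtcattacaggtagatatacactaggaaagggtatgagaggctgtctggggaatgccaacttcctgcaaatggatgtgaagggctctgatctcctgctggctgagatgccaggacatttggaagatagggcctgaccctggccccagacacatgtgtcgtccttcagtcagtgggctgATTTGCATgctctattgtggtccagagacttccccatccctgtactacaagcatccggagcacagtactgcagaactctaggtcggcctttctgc
Cd79a: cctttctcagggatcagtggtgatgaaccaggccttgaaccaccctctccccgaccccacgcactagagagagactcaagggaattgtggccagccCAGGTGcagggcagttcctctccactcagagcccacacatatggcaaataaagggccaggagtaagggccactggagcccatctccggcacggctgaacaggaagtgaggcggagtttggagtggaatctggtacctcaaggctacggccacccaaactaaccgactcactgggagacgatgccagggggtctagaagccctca
Chchd10: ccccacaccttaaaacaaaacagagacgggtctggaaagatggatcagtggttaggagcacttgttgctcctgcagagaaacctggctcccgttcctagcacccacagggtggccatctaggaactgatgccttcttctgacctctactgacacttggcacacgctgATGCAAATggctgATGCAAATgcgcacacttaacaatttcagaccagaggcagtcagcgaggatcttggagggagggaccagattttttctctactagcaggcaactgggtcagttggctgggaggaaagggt

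The Igll1 window held CCCNNGGG at 231 bases before the start and the E-box, read on the other strand, at 8 bases before it. The E-box was found at 88 bases before the start of Vpreb1 and at 154 bases before that of Cd79a. The octamer was found at 45 bases before the start of Vpreb3, on the other strand, and at 83 and 70 bases before that of Chchd10. Among 32851 promoter windows of the same length, 13.7% held CCCNNGGG, 20.2% the E-box and 1.74% the octamer. Matches are a description of the letters and do not show binding.

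The first question was how much of each sorted population these cells made up. They were 0.0257% of the kept cells in control replicate 1 (exact Clopper-Pearson 95% interval 0.003 to 0.092), 0.251% in control replicate 2 (0.0519 to 0.733), 0.573% in knockout replicate 1 (0.262 to 1.08) and 3.60% in knockout replicate 2 (2.995 to 4.29). Both knockout libraries were above both control libraries, but the knockout libraries lay far apart. The order was lost with copied barcodes kept, where control replicate 2 stood at 1.18% and knockout replicate 1 at 0.586% (exact permutation p = 0.667). The mean was 0.139% ± 0.160 in control and 2.09% ± 2.14 in knockout libraries (SD, n = 2 each), a difference of 1.95 percentage points, with p = 0.33 in an exact two-sided permutation test. This is the smallest p that 2 libraries against 2 can give. The intervals cover counting error only, and in a sorted sample a larger share of 1 cell type cannot be told apart from a smaller number of the others. Without knockout replicate 2 the difference was 0.434 percentage points.

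Mature B-like cells (Cd79a and Ms4a1 present, no Kit UMI, fewer than 5 UMIs of the 3 chains) numbered 2, 3, 80 and 80 in the 4 libraries in the same order, or 0.0257%, 0.251%, 5.09% and 2.40% of the kept cells. All 5 control cells of this class carried Jchain, the joining chain of secreted antibodies and a plasma cell gene, at 19968 and 74978 CPM, and 8 of 80 and 7 of 80 cells did in the knockout libraries. The name thus stands for the rule and not for 1 cell type. The share of the class was 3.61 percentage points higher in knockout libraries (exact permutation p = 0.33). Both B-lineage classes were thus more frequent in the knockout libraries, but in unlike proportion, since mature B-like cells outnumbered pro-B and pre-B like cells in knockout replicate 1 and not in knockout replicate 2. Of the cells with any Cd79a UMI, the pro-B and pre-B like cells were 2 of 22, 3 of 8, 9 of 188 and 120 of 360, or 9.09%, 37.5%, 4.79% and 33.3%. On that denominator the knockout libraries were not above the control libraries, with a difference of -4.24 percentage points (exact permutation p = 0.667). Dntt-positive cells without Cd79a, an earlier lymphoid class, ranged from 10.5% to 29.5% of the control and from 13.6% to 17.8% of the knockout cells (difference -4.30 percentage points, exact permutation p = 1).

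**Figure D1:**
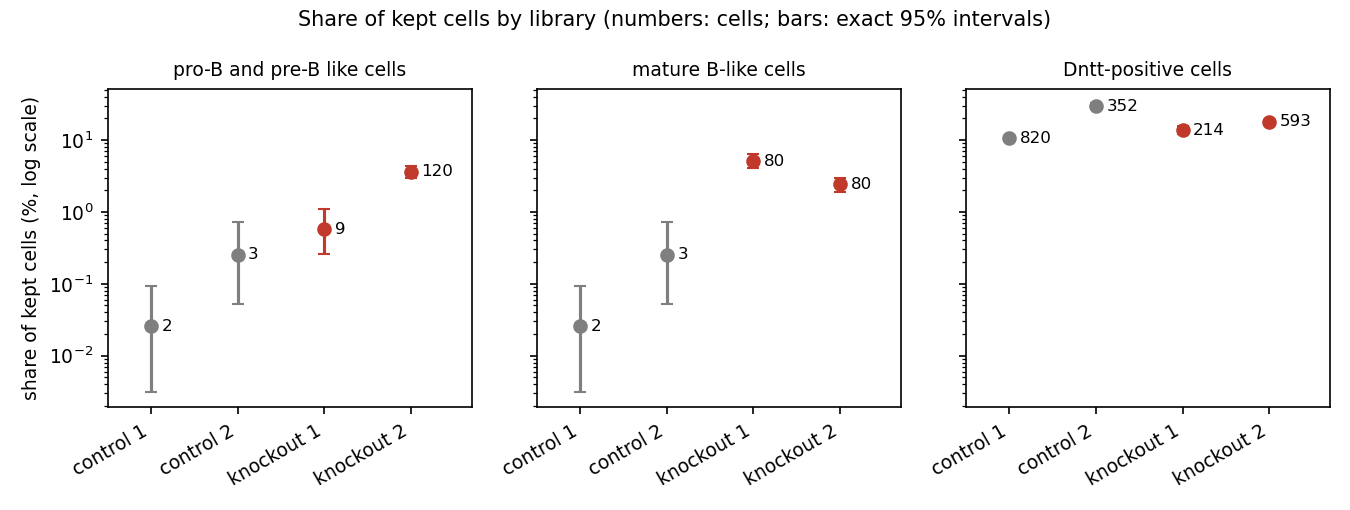
Share of kept cells (percent, log scale) in each of the 4 libraries for pro-B and pre-B like, mature B-like and Dntt-positive cells, with the number of cells beside each point and exact 95% intervals as bars. The pro-B and pre-B like share rises from 0.0257% in control replicate 1 to 3.60% in knockout replicate 2, whereas the Dntt-positive share overlaps between genotypes.

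Copied barcodes mattered most for control replicate 2. There 39 left-out barcodes met every other condition, 34 of them with a larger partner in knockout replicate 2 at a median of 17.3 times the UMIs, and 29 of these partners were themselves pro-B or pre-B like. Had the copies been kept, control replicate 2 would have held 42 such cells, instead of 3. A further 6 copies were left out of knockout replicate 1.

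Few cells lay near the limit set by the rule. Among kept cells with Cd79a and no Ms4a1, 1 cell had 3 or 4 UMIs of the 3 chains, 2 had 5 or 6, 1 had 7 to 9, 5 had 10 to 19, 27 had 20 to 49 and 99 had 50 or more. No kept cell reached 5 chain UMIs without Cd79a. All 3 chains were detected in 128 of the 134 cells, and 4 cells (2 of control replicate 2 and 1 of each knockout library) had Vpreb3 alone. In knockout replicate 2 the cells carried 9 to 227 chain UMIs, with a median of 74, at a median depth of 14050 UMIs, close to the 14635 of the other kept cells. Knockout replicate 1 cells had 5 to 174 chain UMIs at a median of 16772 UMIs, while the control cells had median depths of 5045 and 2372 UMIs.

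Over the summed UMIs of each library, Igll1 stood at 2081 and 1278 CPM in the control and at 1092 and 1914 CPM in the knockout cells. Vpreb1 stood at 2478 and 2091 CPM in control and at 1344 and 2138 CPM in knockout cells, and Vpreb3 at 1982 and 1975 against 1181 and 1519 CPM. Mature B-like cells of the knockout libraries had no Igll1 UMI but kept Vpreb3 at 119 and 140 CPM. Cd79a was found at 2874, 2846, 991 and 1652 CPM, and at 1.10, 2.65, 35.8 and 31.9 CPM in the other kept cells, which include the mature B-like cells. Vpreb2, the close copy of Vpreb1, was counted at 99.1, 0, 61.6 and 79.4 CPM, and reads could be split between the copies.

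Outside the rule, transcription factors of B-lineage commitment were high. Because the rule read these same cells, genes are described without a test. Of 13019 genes, 1.64% were over 2-fold higher and 1.77% over 2-fold lower in pro-B and pre-B like cells than in the other kept cells of both knockout libraries (10 CPM added to each value). The median log2 ratio over all genes was -0.09 in knockout replicate 1 and -0.02 in knockout replicate 2. Among 16 B-lineage transcription factors, 11 were over 2-fold higher in both libraries and none over 2-fold lower, with medians of 1.40 and 1.52.

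Ebf1, the factor that specifies the B lineage, was detected in all 134 cells. Its level was 1685 and 2788 CPM in the control and 918 and 993 CPM in the knockout cells, against 9.03 and 8.10 CPM in the other kept knockout cells and 621 and 600 CPM in mature B-like cells. Every library had Ebf1 high in the chosen cells. Pax5, which holds cells to the B lineage, stood at 198, 639, 246 and 311 CPM, near the 265 and 334 CPM of mature B-like cells and without a UMI in the Dntt-positive cells of the knockout libraries. Lef1, a Wnt pathway factor of early B cells, was at 892, 639, 353 and 342 CPM and at 3.12 and 4.84 CPM in mature B-like cells. In the knockout libraries Ebf1 and Pax5 were thus shared with the mature B-like cells and Lef1 was not. The 2 and 3 control cells that met the rule for mature B-like cells, all of them with the plasma cell gene Jchain, had no UMI of any of the 3 genes. Tcf3, which encodes the E2A proteins, was at 190 and 207 CPM in knockout cells against 61.7 and 63.8 CPM in the others. Sox4, needed for early B cell survival, was at 711 and 470 CPM against 298 and 278 CPM.

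Some components of pre-B receptor signalling were higher in these cells and others were near the level of the other kept cells. Of 14 genes, 5 were over 2-fold higher in both knockout libraries and none lower, with median log2 ratios of 0.37 and 0.34. Cd79b, the signalling partner of Cd79a, was at 396, 1045, 403 and 527 CPM against 40.9, 34.2, 44.7 and 42.1 CPM in the other kept cells. Blnk, the adaptor below the receptor, was at 595, 290, 157 and 175 CPM and under 7 CPM in the other kept cells of every library. Mature B-like cells of the knockout libraries also carried Cd79b (1242 and 1530 CPM) and Blnk (172 and 179 CPM). The kinases Syk and Btk were at 73.9 and 85.5 CPM in knockout replicate 2, against 55.5 and 68.1 CPM in its other cells. Cd22, an inhibitory receptor of later B cells, had no UMI in 3 libraries and 4.41 CPM in knockout replicate 2.

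Genes of V(D)J recombination were present. Rag1 was read at 0, 58.1, 28.0 and 32.5 CPM and Rag2 at 0, 0, 16.8 and 40.8 CPM, whereas mature B-like cells had no UMI of either and the other kept knockout cells had at most 0.25 CPM of Rag1 and 1.52 CPM of Rag2. Dntt, the polymerase that adds bases at the joins, was at 793, 116, 487 and 483 CPM, near the 491 and 625 CPM of the Dntt-positive cells that were chosen for it. It was found in 92.5% of the cells of knockout replicate 2. Hmgb1 and Hmgb2, which assist the Rag enzymes and are abundant in dividing cells, were at 2049 and 2463 CPM and at 2016 and 2197 CPM in the knockout cells. Of 12 genes in the list, 3 were over 2-fold higher in both libraries and none lower. The end-joining genes Xrcc5 and Xrcc6 were at 29.2 and 64.0 CPM in knockout replicate 2.

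Il7r, the receptor chain through which interleukin-7 acts on B progenitors, was at 99.1, 232, 112 and 149 CPM and at 3.32 and 4.00 CPM in the other kept knockout cells. Socs2, a target of the STAT5 pathway below that receptor, was at 134 and 197 CPM in knockout cells against 14.8 and 21.4 CPM, with no UMI in the 5 control cells. Cish, another such target, was at 89.6 and 49.1 CPM. Ccnd3, the D-type cyclin of cycling pre-B cells, was at 1883, 1452, 526 and 1002 CPM against 130 and 150 CPM in the other knockout cells, and all 25 UMIs of control replicate 2 came from 1 of its 3 cells. Flt3, the cytokine receptor of earlier lymphoid progenitors, was at 56.0 CPM in knockout replicate 1, where all 10 UMIs came from 1 of the 9 cells, and at 6.06 CPM in knockout replicate 2, against 39.3 and 37.1 CPM in the other kept cells. Il2ra, the interleukin-2 receptor chain of later pre-B cells, had 0.551 CPM in knockout replicate 2 and no UMI elsewhere. In the list of 12 cytokine receptor and interleukin-7 signalling genes, 3 were over 2-fold higher and 2 over 2-fold lower in both libraries.

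Of 15 surface and early lymphoid genes, 5 were over 2-fold higher in both knockout libraries. Cd24a (heat-stable antigen) was at 274 and 532 CPM and Bst1 (BP-3) at 39.2 and 97.6 CPM, the latter without a UMI in mature B-like cells. Ly6d, which marks the B-committed side of lymphoid progenitors, differed between libraries at 0, 2788, 61.6 and 75.0 CPM. In control replicate 2 its UMIs came from cells with 1, 20 and 27 counts, and the cell with 20 had Vpreb3 as its only chain and 7 UMIs of Fcrla, a gene of later B cells. Mature B-like cells of the knockout libraries had Ly6d at 2920 and 3297 CPM.

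**Figure D2:**
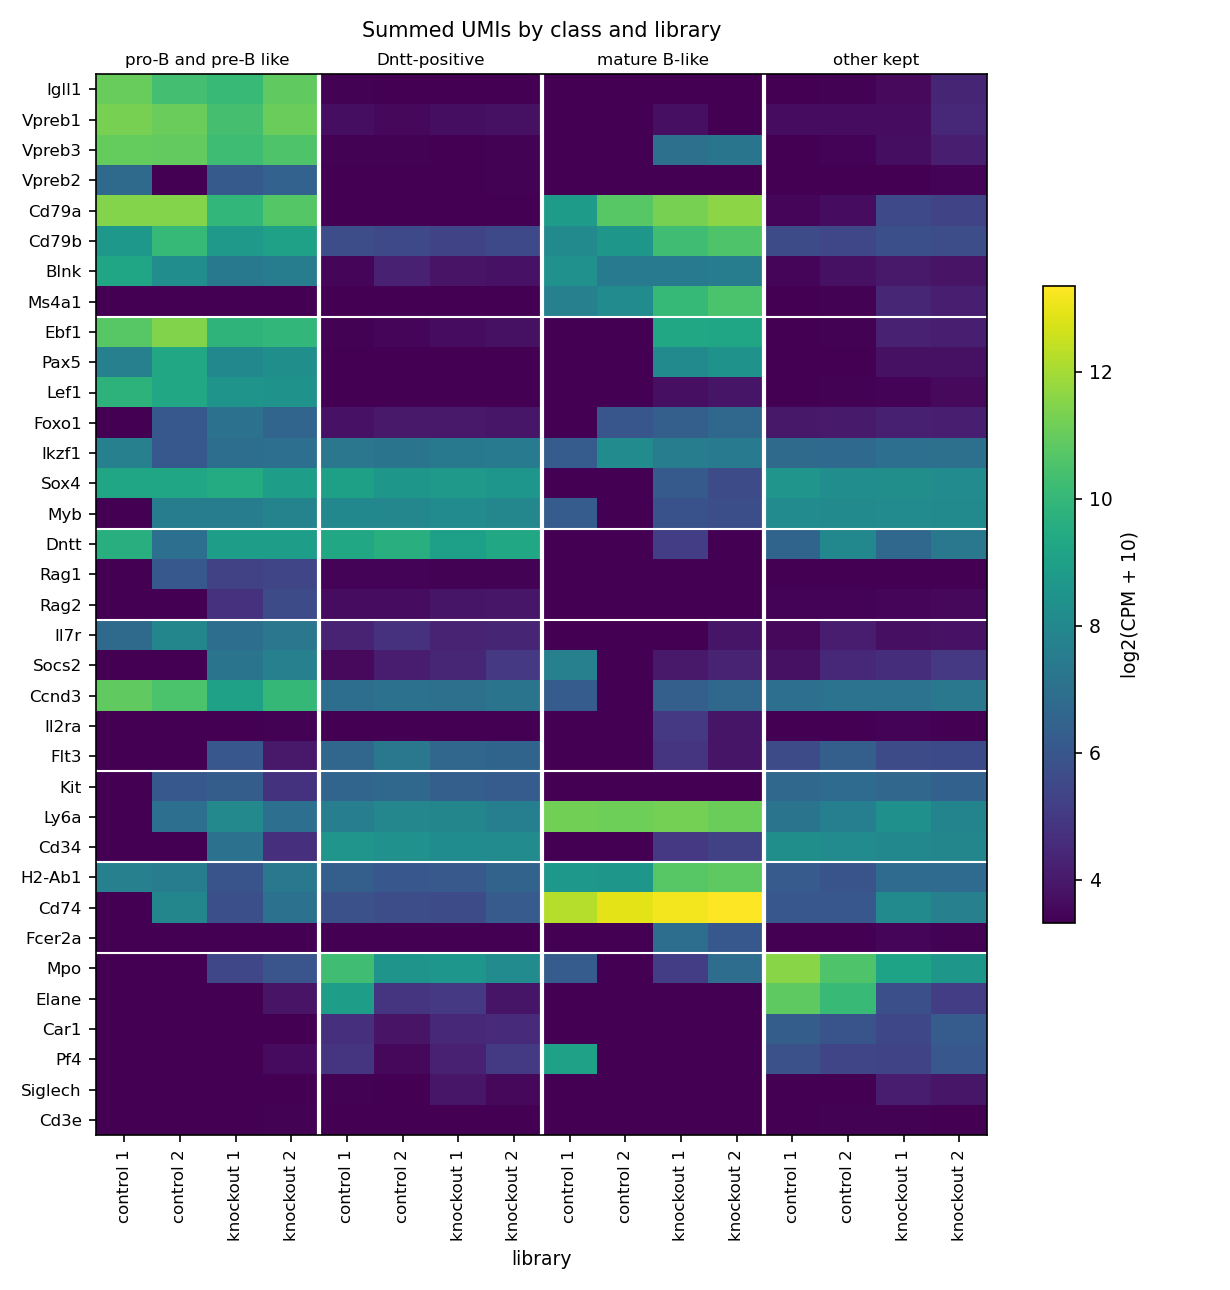
Level of selected genes as log2(CPM + 10) of summed UMIs (colour) for 4 classes of cells, each in the 4 libraries. The pro-B and pre-B like columns are high for the chains, Ebf1, Lef1 and Il7r, and in the knockout libraries share Ebf1 and Pax5 with the mature B-like columns and are low for Cd74 and Mpo.

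Genes of other cell types were counted in the same way. Of 12 mature B cell genes, none was over 2-fold higher or lower in both knockout libraries. Their UMIs summed to 198, 1220, 157 and 344 CPM, with H2-Ab1 (an MHC class II chain) the most abundant in 3 libraries, at 198, 50.4 and 149 CPM, and Fcrla in control replicate 2, at 407 CPM. Cd74, the invariant chain of MHC class II, was at 44.8 and 127 CPM in knockout cells against 9139 and 10385 CPM in mature B-like cells. Of 6 plasma cell genes 1, Mzb1, a chaperone that B cells also use, was over 2-fold higher in both knockout libraries. It was at 991, 1452, 605 and 716 CPM against 4.14, 15.7, 68.5 and 35.1 CPM in the other kept cells, while Jchain had 1.10 CPM in knockout replicate 2 and no UMI elsewhere. Of 14 neutrophil genes, none had a UMI in the control cells and 7 were over 2-fold lower in both knockout libraries. The list summed to 134 and 151 CPM there, and Mpo, the granule peroxidase, was at 33.6 and 52.4 CPM against 554 and 386 CPM in the other cells. Car1 and Pf4, which mark the erythroid and megakaryocyte lineages, were at 0 in all libraries but for 2.21 CPM of Pf4 in knockout replicate 2. The T cell gene Cd3e was at 0.551 CPM in that library and at 0 in the others. Of 11 T and NK cell genes and of 10 plasmacytoid dendritic cell genes, 1 each was over 2-fold higher in both knockout libraries (Thy1 at 44.8 and 59.5 CPM, and Dntt), with 1 and 2 lower. None of 8 monocyte, 11 erythroid and 7 megakaryocyte genes was over 2-fold higher, and 1, 3 and 3 were lower. Siglech, which defines plasmacytoid dendritic cells, had no UMI in any library. At least 3 UMIs of 48 genes of other lineages were found in 25 of the 134 cells, 24 of them in knockout replicate 2, and 7 cells had 2 or more times the median UMIs of the other kept cells of their library. No doublet caller was run, and the part of doublets or free RNA in these values was not tested.

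Kit and Ly6a, which encode the cKit and Sca1 proteins of the sort, were compared because the cells had passed that gate. Kit stood at 0, 58.1, 67.2 and 17.6 CPM in the pro-B and pre-B like cells and at 95.9, 103, 90.0 and 75.4 CPM in the other kept cells. A Kit UMI was found in 0 of 2, 1 of 3, 4 of 9 and 21 of 120 cells. In knockout replicate 2 this was 17.5% (95% interval 11.2 to 25.5), against 59.0% of the other kept cells. Mature B-like cells, this time taken with or without Kit, should lack the gene. A UMI was found in 12.1% (6.19 to 20.6) and 15.8% (9.12 to 24.7) of them in knockout replicates 1 and 2. Their median depths were 2464 and 1854 UMIs, and over their summed UMIs Kit stood at 65.6 and 64.8 CPM. Their 11 and 15 cells with Kit were unlike the rest, with median depths of 34096 and 16524 UMIs against 2141 and 1493 and with Cd34 in 9 and 10 of them. The part of doublets and free RNA in this share was not tested. Thinned to 1000 UMIs per cell, with no cell left out, the share was 2.5% (0.519 to 7.13, 3 cells) in the pro-B and pre-B like cells of knockout replicate 2 and 0 of cells in the other libraries. In the mature B-like cells it was 2.20% and 2.11% and in the other kept cells 8.19% and 7.04%. The interval of knockout replicate 2 includes both the mature B-like and the other kept share, so the thinned values do not place the cells with either. The 9 cells of knockout replicate 1, with an unthinned share of 44.4% (13.7 to 78.8), included 1 cell of 56776 UMIs with 9 Kit UMIs. The thinned difference between genotypes was 1.25 percentage points (exact permutation p = 1).

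In the knockout libraries Ly6a was more frequent than Kit. Its level was 0, 116, 252 and 116 CPM, against 133, 190, 316 and 221 CPM in the other kept cells. The control values rest on 0 and 2 UMIs, which allow up to 366 and 420 CPM (95% Poisson limits), and the limits of knockout replicate 1 (184 to 337) include the value of its other cells, while those of knockout replicate 2 (101 to 133) lie below it. The Poisson limits cover counting error only and not the variation between cells. Both knockout values were far below the 2424 and 2150 CPM of mature B-like cells without Kit in the knockout libraries. Taken with or without Kit, mature B-like cells had 1407 and 1432 CPM there. A Ly6a UMI was found in 0 of 2, 1 of 3, 8 of 9 and 69 of 120 cells, or 88.9% and 57.5% in the knockout libraries against 87.0% and 77.1% of their other kept cells. At 1000 UMIs the shares were 33.3% and 9.17% against 26.6% and 19.9%. In knockout replicate 1 the interval of the 9 cells (7.49 to 70.1) included the share of the other cells, and in knockout replicate 2 that of the 120 cells (4.67 to 15.8) lay below it. The thinned difference between genotypes was 21.3 percentage points (exact permutation p = 0.33), with no thinned control cell holding a UMI among the 5. Over all 134 cells, 18 had both genes, 8 Kit alone, 60 Ly6a alone and 48 neither. Cd34, a progenitor surface gene, was at 0 in control cells and at 129 and 15.4 CPM in knockout cells against 249 and 236 CPM in the other cells, and all 23 UMIs of knockout replicate 1 came from 1 cell. The surface proteins themselves were not measured on single cells.

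**Figure D3:**
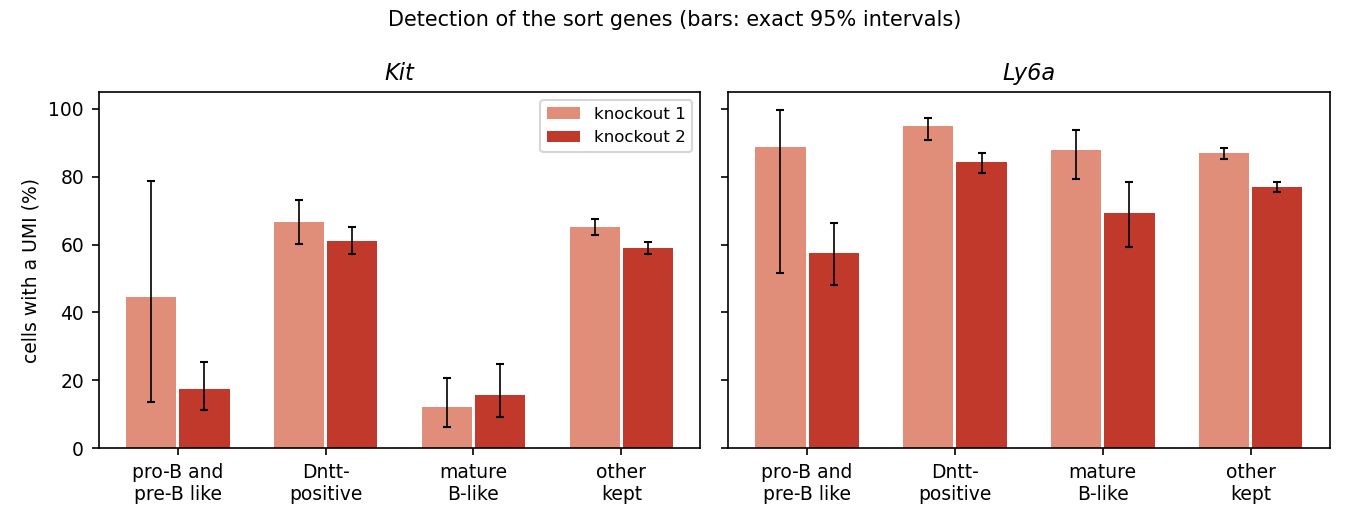
Percent of cells with a UMI of Kit (left) and Ly6a (right), without thinning, in 4 classes of cells from the knockout libraries, with exact 95% intervals. In both panels the mature B-like class takes cells with or without Kit. In knockout replicate 2 a Kit UMI was found in 17.5% of pro-B and pre-B like cells and in 15.8% of these mature B-like cells. Their median depths differ (14050 and 1854 UMIs), so no likeness is read from these shares. The other kept cells stand at 59.0%.

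Genes of stem cells were low in the same cells. Of 10 stem cell genes, 8 were over 2-fold lower in both knockout libraries, with median log2 ratios of -1.59 and -2.14. Meis1, a homeobox factor of stem cells, was at 39.2 and 21.5 CPM against 153 and 152 CPM in the other kept cells. Of 8 sort and stem surface genes, 3 were over 2-fold lower in both. Ifitm1 was at 0, 116, 263 and 152 CPM against 796 and 809 CPM in the other knockout cells.

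The 20 genes outside the rule with the largest ratio to the other kept cells included, beside those above, several without a named place in the B cell lists. Bfsp2, a filament protein known from the lens, was at 0, 407, 605 and 792 CPM against 6.27 and 9.20 CPM in the other knockout cells. Akap12, a scaffold of protein kinase A, was at 297, 348, 269 and 278 CPM and was the most even across libraries of those named here. Cplx2, a complexin that acts in vesicle fusion, was at 892, 116, 162 and 453 CPM, and Sdc4, a syndecan, at 496, 523, 269 and 345 CPM. Chchd10, a mitochondrial protein gene at chr10:75933130-75937747, was at 2081, 1103, 806 and 1075 CPM against 67.9 and 79.1 CPM in the other knockout cells. It lies next to Vpreb3 (GENCODE span chr10:75943057-75949657) on the same strand. Its promoter window, with 2 copies of the octamer, is printed above.

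In each library the share of UMIs from 42 S-phase and 52 G2/M-phase genes was higher in the pro-B and pre-B like cells than in the mature B-like, Dntt-positive or all other kept cells. It was 2.33%, 1.87%, 1.31% and 1.67% of their UMIs, against 1.12%, 0.866%, 1.10% and 1.18% in the other kept cells of the same libraries and 0.733% and 0.616% in the mature B-like cells of the knockout libraries. The S-phase genes alone made up 0.357%, 0.813%, 0.362% and 0.473% against 0.379%, 0.320%, 0.404% and 0.401% in the other kept cells, so that in control replicate 1 and knockout replicate 1 the G2/M genes carried the difference. Mki67, the proliferation antigen, was at 1189, 581, 370 and 589 CPM against 206 and 237 CPM in the other knockout cells, and Top2a, the topoisomerase of dividing cells, at 892, 929, 487 and 750 CPM. Of the 12 genes listed under growth arrest, which include cyclins, the 1 over 2-fold higher in both knockout libraries was the cyclin Ccnd3, and of 13 immediate early genes 3 were lower. Singly, few cycle genes passed 2-fold, with 1 of 52 G2/M genes and none of 42 S-phase genes higher in both knockout libraries. Between genotypes the share differed by -0.608 percentage points (exact permutation p = 0.33), the control value resting on 5 cells. The libraries no longer separated by genotype with copied barcodes kept (-0.496) or at 10 chain UMIs (-0.492, exact permutation p = 0.667 for each). In knockout replicate 2 the median over cells was 1.69% against 1.13% in the other kept cells, and in knockout replicate 1 1.17% against 1.00%. No phase was called for single cells.

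**Figure D4:**
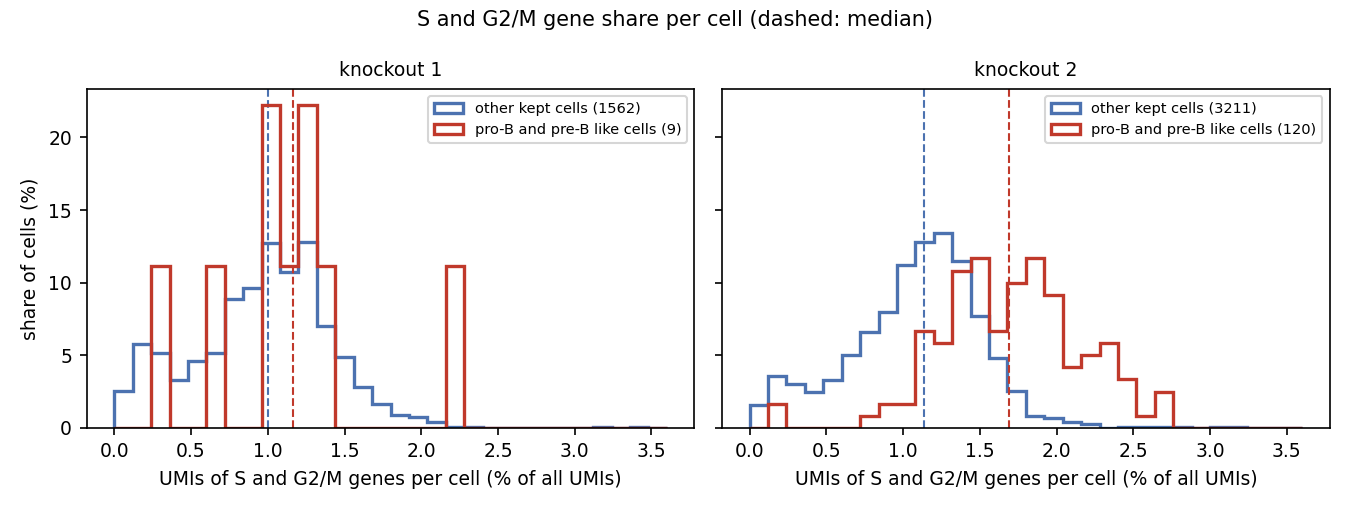
Distribution over cells of the S and G2/M gene share (percent of a cell's UMIs) in the knockout libraries, for pro-B and pre-B like cells and the other kept cells, as percent of each class with dashed medians. In knockout replicate 2 the 120 cells have a median of 1.69% against 1.13%.

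The 120 cells of knockout replicate 2 allowed a look at how the cells vary. Split at their median S and G2/M share into 60 and 60, the upper cells had Igll1 at 2357 CPM and Vpreb3 at 1962 CPM, and the lower cells at 1555 and 1161 CPM. Ebf1 was at 1269 CPM in the upper and 770 CPM in the lower cells, Dntt at 624 and 369 CPM, and Rag2 at 65.4 CPM (95% Poisson interval 48.97 to 85.5) and 20.9 CPM (12.96 to 32.0). Ly6a went the other way, at 87.6 and 140 CPM. The cut is a point in a continuous range, the cells share 1 library, and the upper cells were shallower, with a median of 11898 UMIs against 15497. The Poisson intervals cover counting error only and not the variation between cells. The part of depth or of other RNA in these differences was not tested.

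Relative to its mean, the count of Malat1, a nuclear noncoding RNA, varied most between the 120 cells, with a variance of 28.7 times the mean, followed by the interferon-stimulated gene Ifi27l2a at 25.2 and Ifitm1 at 23.3, where the median over 2305 genes was 1.19. Vpreb3 and Vpreb1, which the rule used, stood at 13.8 and 12.4. Ifitm1 was found in 24.2% of the cells and Vpreb1 in 98.3%, so that most cells had no UMI of the former and nearly all had the latter. Cells were not thinned for this ratio, and depth adds to it for abundant genes.

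Nup358 knockout and control pro-B and pre-B like cells were then compared over the summed counts of the 4 libraries, which hold 5 control cells in all. Both genes that passed the test belong to the translation machinery. With p-values of the edgeR quasi-likelihood test adjusted by Benjamini-Hochberg, 2 of 1643 genes (0.122%) were called at 0.05, both higher in knockout cells, and 168 had an unadjusted p under 0.05. The median log2 fold change of all tested genes was 0.13.

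Rpl17, a protein of the large ribosomal subunit, was at 1189 and 1568 CPM in control and at 3925 and 3506 CPM in knockout cells, a log2 fold change of 1.63 (SE 0.32, adjusted p = 0.0360). Eef1g, a subunit of translation elongation factor 1, was at 496 and 290 CPM in control and at 1338 and 1487 CPM in knockout cells, a log2 fold change of 2.16 (SE 0.44, adjusted p = 0.0360). The groups did not overlap for either gene, but Eef1g rests on 5 and 5 UMIs in the control libraries and Rpl17 on 12 and 27. UMIs of 84 ribosomal protein genes made up 24.4% and 21.8% of the control and 30.4% and 28.5% of the knockout sums, whereas the other kept cells had 29.0%, 32.2%, 30.5% and 29.7%. The low share thus lay with the control pro-B and pre-B like cells, whose median depths were lower than those of the knockout ones. The part of depth in this difference was not tested. Neither gene was called with copied barcodes kept, with cells carrying genes of other lineages left out, or without either knockout library. Without 1 control library 97 of 4805 or 86 of 4033 genes were called, with the lone control library assumed to vary like the knockout pair, and these fits are not like the one on 1643 genes. The log2 fold changes of Rpl17 and Eef1g fell to 0.78 and 0.70 with copied barcodes kept, but were 1.56 and 2.12 with cells of other lineages left out, 1.43 and 2.10 without knockout replicate 1 and 1.62 and 1.97 without knockout replicate 2.

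The other 8 of the 10 genes of smallest p did not pass the threshold. Jund, an AP-1 factor, was at 793 and 1684 CPM in control and at 241 and 394 CPM in knockout cells (log2 fold change -1.78, edgeR adjusted p = 0.0605). Klf2, a quiescence factor of lymphocytes, was at 297 and 871 CPM against 146 and 88.8 CPM (-2.42, edgeR adjusted p = 0.0605), and Malat1 at 4163 and 11499 CPM against 2581 and 2547 CPM (-1.43, edgeR adjusted p = 0.0605). Mesdc1 had a log2 fold change of -2.85 and the histone gene Hist1h2ap one of -1.49. Rps2, Rpl12 and Rps6, which encode ribosomal proteins, had log2 fold changes of 1.16, 1.31 and 1.25. In the lists, no gene was called. All 6 tested immediate early genes had values below control, with a median log2 fold change of -1.42, whereas 10 B-lineage transcription factors had a median of -0.19 with 4 above and 6 below. Of 32 G2/M genes tested 13 were above and 19 below control, and of 12 tested genes of the list of Nup358 and class I histone deacetylases 8 were above and 4 below. None of the 15 genes of that list was over 2-fold higher or lower in these cells than in the other kept cells of both knockout libraries.

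**Figure D5:**
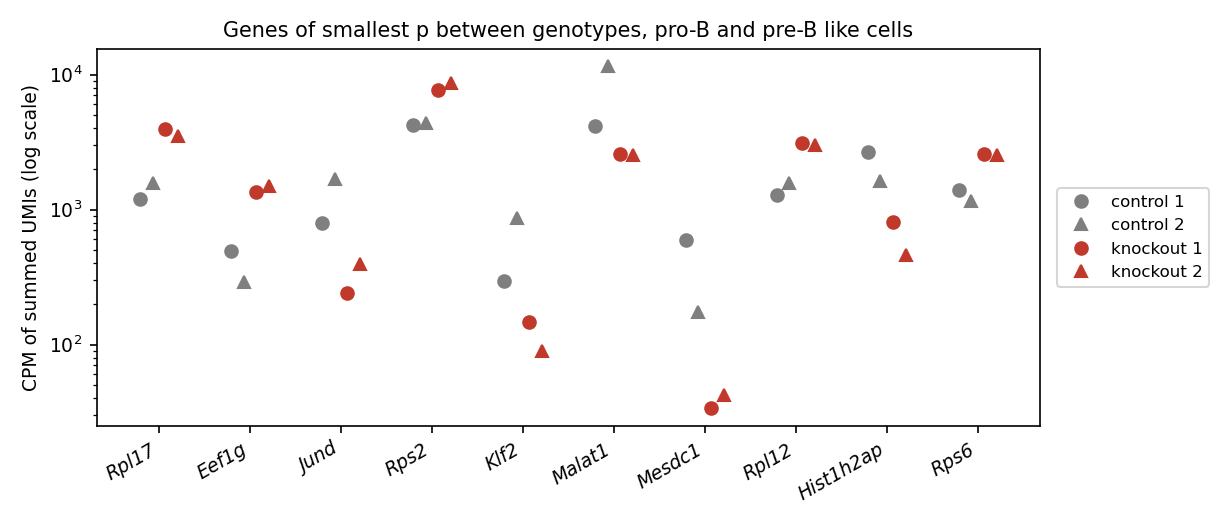
CPM of summed UMIs (log scale) in the pro-B and pre-B like cells of each library for the 10 genes of smallest p between genotypes. Knockout points lie above control points for Rpl17, Eef1g, Rps2, Rpl12 and Rps6 and below them for the other 5 genes. Rpl17 and Eef1g passed the test.

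Whether a change with genotype differed between the pro-B and pre-B like cells and the other kept cells was tested as an interaction with library as a block. Of 12128 genes, 149 (1.23%) were called by edgeR's quasi-likelihood test, 138 with a positive fitted difference (1.14%) and 11 with a negative one (0.0907%). The median log2 difference of all tested genes was 6.85, so this split by sign is not read as a direction of change. Hsp90ab1 was called at 0.93 with 4361 and 2846 CPM in control and 4098 and 4446 CPM in knockout pro-B and pre-B like cells. Its levels in the other kept cells were 4796 and 3033 CPM in control and 4969 and 4785 CPM in knockout libraries. The part of scaling in these calls was not tested. Of the 11, Cd79a, Igll1 and Vpreb3 are genes that chose the cells, and nothing is read from their calls. Of the 149 genes, 72 encode ribosomal proteins by their numbered names, a count that leaves out Rpsa, which was also called. The share of such genes among all tested genes was not counted, so the 72 are not read as a theme. No UMI was counted in either control sum for 6850 of the tested genes (56.5%) and for 13 of the called ones, so that a large fitted value may rest on an absent count. The call count was 13 with copied barcodes kept, 45 with the replicate block within each class, 85 without control replicate 2 and 65 without knockout replicate 2.

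Among the 5 largest positive differences were the neutrophil granule genes Mpo, Prtn3 and Elane. None had a UMI in the control pro-B and pre-B like cells, and in the knockout cells they stood at 33.6 and 52.4 CPM, at 78.4 and 28.7 CPM and at 0 and 4.41 CPM. In the other kept cells Mpo was at 3019 and 1542 CPM in control and 554 and 386 CPM in knockout libraries, and the control sums of 10090 and 17219 UMIs allow up to 366 and 214 CPM for a gene without a count. The edgeR adjusted p was 1.65e-05, 0.000207 and 0.0164, and each lost its call with copied barcodes kept and without at least 1 of the libraries, which was knockout replicate 2 for Mpo (adjusted p = 0.405), either control library for Prtn3 (0.0701 and 0.153) and all but knockout replicate 1 for Elane (0.292 to 1). Elane was not called with the replicate block either (0.481). Leaving out cells with 3 or more UMIs of other lineages can only lower these counts. None of the 3 was called there (adjusted p = 1 for each). The log2 differences of Mpo, Prtn3 and Elane were 9.35, 10.7 and 12.6 there, against 15.4, 15.3 and 15.1 in the main fit. Rgcc, a cell cycle regulator, and Lxn (latexin) completed the 5, at 67.2 and 100 CPM and at 162 and 136 CPM in knockout cells and at 0 in control cells (edgeR adjusted p = 0.0147 and 0.0312). Both lost the call without any 1 of the 4 libraries, with copied barcodes kept (adjusted p = 0.214 and 1) and with the replicate block (0.0567 and 0.0603). With no control UMI of either gene, a fitted value stays large whichever library is left out, so its evenness is not read as support. Over libraries left out the log2 difference was 14.3 to 15.4 for Rgcc and 14.7 to 15.1 for Lxn. The difference was 14.9 for each with the replicate block, and 2.81 and 1.56 with copied barcodes kept. The knockout levels of both genes lay below the 366 and 214 CPM that the control sums allow.

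The 5 largest negative differences were Gm43291, Pax5, Fcrla, Ly6d and Ebf1. Ebf1 had a log2 difference of -5.44 (edgeR adjusted p = 2.28e-29). Its level in the other kept cells was 0.119 and 0.372 CPM in control and 9.03 and 8.10 CPM in knockout libraries, where 160 mature B-like cells were present against 5, while in the pro-B and pre-B like cells it was 1685 and 2788 against 918 and 993 CPM. Pax5 was at 0 in the other kept control cells and at 3.53 and 3.64 CPM in the knockout ones, with a log2 difference of -8.32 (edgeR adjusted p = 2.07e-08). It lost the call without control replicate 2 and without knockout replicate 2, where the log2 difference was -8.04 and -8.48. The negative differences of these 2 genes thus came with more mature B-like cells among the other kept cells, whose part in them was not tested. Ly6d (-5.78, edgeR adjusted p = 1.51e-31), Fcrla (-7.53, edgeR adjusted p = 2.02e-05) and Gm43291 (-10.3, edgeR adjusted p = 0.000127) turned positive without control replicate 2, at 11.1, 6.72 and 4.76.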

How the data were processed

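LSK cells were profiled with 10x Genomics 3′ v3.1 chemistry. The authors deposited whole-number UMI counts per gene and barcode, one matrix per library, from Cell Ranger 3.1 and mm10 per the labels. Cells with 1000 or more UMIs and at most 10% mitochondrial UMIs were kept, barcodes held by another library at 3 or more times the UMIs were left out, and no doublet caller was run. CPM are UMIs per 1000000, summed over a class and library, and folds had 10 CPM added. Libraries are the replicates (2 per genotype, each a pool of mice). Summed counts were tested with edgeR 4.0.16 (filterByExpr, TMM scaling, quasi-likelihood F test, Benjamini-Hochberg adjustment) in R 4.3.3, shares with exact permutation tests over libraries in scipy 1.17.1. The edgeR steps were tested on simulated counts. For the genotype test, 10.4% of 2-fold, 34.3% of 4-fold and 86.4% of 16-fold changes were called there, with 3 false calls. DESeq2 1.42.0 was an alternative, as were other limits on cells, other scaling and filters, the replicate block and leaving out each library. Figures were drawn with matplotlib 3.10.9. Ensembl gene IDs matched GENCODE vM21 for 27645 of 27998 genes, and all 5 promoters were matched by symbol. The members, gene lists and tests were chosen with earlier results of these data known. Genes were named from those of the rule, Kit, Ly6a, Ebf1 and Ranbp2, the most abundant of each list, the 20 of largest fold, and those called or of smallest p, though not all of these are named. Genes at or near 0, such as Siglech, Cd3e and Cd22, were added after their values were seen. The result for 1 gene is not reported here. The gene lists cover transcription factors, receptor signalling, recombination, cytokine, surface, sort, stem cell, cycle, growth arrest, immediate early, Bcl2 family, p53, nucleoporin and deacetylase, interferon and other cell types.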

Additional observations from a re-analysis of the deposited data

Results flagged for a closer look

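The change with genotype differed between the pro-B and pre-B like cells and the other kept cells for 149 genes by edgeR's interaction test with Benjamini-Hochberg adjustment. That count holds Cd79a, Igll1 and Vpreb3, which chose the cells and from which nothing is read. The genes named among them had adjusted p-values of 1.65e-05 (Mpo), 0.000207 (Prtn3), 0.0164 (Elane), 0.0147 (Rgcc), 0.0312 (Lxn), 2.28e-29 (Ebf1), 1.51e-31 (Ly6d), 2.02e-05 (Fcrla), 2.07e-08 (Pax5) and 0.000127 (Gm43291). The control side of each rests on 5 cells. Mpo, Prtn3, Elane, Rgcc and Lxn had no UMI in these cells, and none was called with copied barcodes kept. Ly6d, Fcrla and Gm43291 turned positive without control replicate 2. The median log2 difference of all tested genes was 6.85, and the part of scaling in the calls was not tested.

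Outside the main measurement, 19 kept cells met the conditions on the chains and Cd79a but had a UMI of Ms4a1, with 2 in knockout replicate 1, 17 in knockout replicate 2 and none in the control libraries. Among the copied barcodes that were left out, 45 met the other conditions, 39 of them in control replicate 2 and 6 in knockout replicate 1.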

How the results depend on the processing

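The mean share of pro-B and pre-B like cells stayed higher in knockout libraries in 11 of 12 alternatives, from 0.0618 to 3.46 percentage points, and was -4.24 with Cd79a-positive cells as the denominator. The lowest value left out cells with 3 or more UMIs of the whole lists of other lineages, which hold Dntt and other genes of early B cells and removed 131 of the 134 cells, all 5 control cells included, so that the other results had no value there. A trimmed list of 48 genes and a required UMI of Igll1 or Vpreb1 were alternatives chosen after seeing the data. The Kit difference ranged from 0 to 2.5 percentage points over libraries left out, the Ly6a difference from 9.17 to 33.3, the cycle gene difference from -0.837 to -0.378 and the share difference from 0.434 to 3.46.

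The count of genes changed between genotypes (2) was 0 with copied barcodes kept or with the trimmed list, 8 at 2000 UMIs, 6 at 10 chain UMIs, 4 without the condition on Ms4a1, 4 with Igll1 or Vpreb1 required, 4 by DESeq2 (115 at an unadjusted p under 0.05), 52 without the filter on low counts, 3 with RLE scaling, 4 with the replicate block, and 1 to 97 with a library left out, where 395 to 4805 genes were tested and the lone library was assumed to vary like the other group. The interaction count (149) was 13 with copied barcodes kept, 45 with the replicate block within each class, and 65 to 144 with a library left out. Ly6d reversed without control replicate 2 (11.1, lowest -6.66 over libraries left out). Gm43291 (lowest -17.0) reversed at 10 chain UMIs (4.09) and without control replicate 2 (4.76). Fcrla (lowest -8.35) reversed at 2000 UMIs (6.12), with Igll1 or Vpreb1 required (6.45) and without control replicate 2 (6.72). In the control cells all UMIs of these 3 genes came from the 3 cells of control replicate 2. Of 148 values for the named genes, 103 kept direction and call, 39 lost the call and 6 reversed. Where causes are not given, they were not tested. Same-numbered libraries did not deviate together (correlation -0.0593 in pro-B and pre-B like cells and -0.0855 in the others, over 2 pairs), so the numbers are not taken as pairs. In depth, the control sums held 10090 and 17219 UMIs against 178609 and 1813831 in the knockout libraries, and the part of depth in the genotype results was not tested.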

Other observations

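Genes of cell survival and the p53 response were described for the same cells, with no test. Bax, which promotes cell death, was at 314 and 348 CPM in the pro-B and pre-B like cells of the knockout libraries and at 166 and 202 CPM in the other kept cells there. Cdkn1a, the cell cycle inhibitor below p53, was at 101 and 131 CPM against 50.9 and 73.0 CPM. None of 12 p53 target genes and none of 10 Bcl2 family genes was over 2-fold higher or lower in both knockout libraries. Bcl2 was at 44.8 and 18.2 CPM and without a UMI in the 5 control cells. Of 10 interferon-stimulated genes, 1 was over 2-fold higher in both, namely Ifi27l2a at 454 and 124 CPM.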
